A study of Mus musculus with 4 samples.

Results

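The mitochondrial genome codes for the 2 rRNAs of the mitochondrial ribosome and for subunits of the respiratory chain, and peaks of a Musashi-1 (Msi1) CLIP-seq experiment were examined in 10 of its genes. These are both rRNA genes, mt-Rnr1 and mt-Rnr2, and 8 mRNA genes, mt-Nd1, mt-Co1, mt-Co2, mt-Atp6, mt-Co3, mt-Nd4, mt-Nd5 and mt-Cytb. The genes were chosen by their positions on the plus strand of the mitochondrial genome of the mouse build mm9, with the peaks of these same libraries known. A peak was counted for a gene where it lay on the plus strand and shared at least 1 bp with it, which held for 38 of the 240811 peaks in all 4 lists and for 38 of the 55 peaks on the mitochondrial genome. Since the lists were in view when the genes were chosen, the values below are a description, with no test between groups.

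CLIP-seq uses ultraviolet light to fix a protein to RNA in contact with it, then recovers the protein with an antibody and sequences the RNA fragments that come along. Msi1 is an RNA-binding protein, and all 4 libraries were made from mouse intestinal epithelial cells with an antibody against it. The 2 wild-type libraries came from intestinal crypts of control mice that received no doxycycline. The 2 TRE-Msi1 libraries came from total intestinal epithelial cells of mice with a doxycycline-driven Msi1 transgene, given doxycycline for 24 h. The protocol speaks of 2 mice for each group, so libraries of a group were taken as separate animals. Ultraviolet light of 265 nm was used for all 4 libraries, with 2 pulses and 400 mJ per cm2 listed. RNA was recovered from the part of the membrane near 50 kD. Genotype, doxycycline and the cells taken changed together between the groups and cannot be told apart. The labels used here do not give the strain, the age or the transgene that makes the mice respond to doxycycline. There was no library without the antibody and no RNA-seq of these cells among the samples, so a peak is a called position, and the abundance of an RNA and its capture with Msi1 cannot be told apart. In such bulk samples, fewer cells of a type and less RNA per cell cannot be told apart either. Libraries are numbered 1 and 2 within a group, as in their titles. Each has its own peak list, of 4863 and 5578 peaks in the wild-type and 189594 and 40776 in the TRE-Msi1 libraries. Depth is unknown, since no read numbers came with the lists. Peaks of TRE-Msi1 library 1 were also narrower, with a median of 40 bp against 74 to 75 bp in the other lists.

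The mitochondrial genome is a small circle that is transcribed from both strands into long precursors. The rRNA genes lie first on the precursor that carries most of the genes, tRNAs separate many of the following genes, and cutting at the tRNAs frees the rRNAs and mRNAs. These RNAs are made inside mitochondria, where the mRNAs are translated, whereas Msi1 is known mainly as a regulator of mRNA translation in the cytoplasm.

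The number of peaks in the 10 genes lay between 6 and 12 in all 4 libraries although the lists differed greatly in length. There were 9 and 11 peaks in wild-type libraries 1 and 2, and 12 and 6 in TRE-Msi1 libraries 1 and 2. The groups overlapped, with means of 10 ± 1.41 in wild-type and 9 ± 4.24 in TRE-Msi1 libraries (SD, n = 2 each). Counted on either strand and over the whole mitochondrial genome, the lists held 11 and 12 rows in wild-type libraries 1 and 2 and 17 and 15 in TRE-Msi1 libraries 1 and 2. As a share of the list, the 10 genes took 0.185% of wild-type library 1 (95% Wilson interval 0.0974 to 0.351%) and 0.197% of wild-type library 2 (0.110 to 0.353%). They took 0.00633% of TRE-Msi1 library 1 (0.00362 to 0.0111%) and 0.0147% of TRE-Msi1 library 2 (0.00674 to 0.0321%). Both wild-type shares were above both TRE-Msi1 shares, by 19.8-fold between geometric means, or a log2 difference of -4.31 for TRE-Msi1 minus wild-type. This share has the list length below the line: the genes' own peak numbers differed by -0.23 on the log2 scale. With every list cut to its 4863 highest-ranked peaks, the genes held 9 and 11 peaks in wild-type libraries 1 and 2 and 10 and 6 in TRE-Msi1 libraries 1 and 2, and the log2 difference in share was -0.36. These Wilson intervals cover counting error alone and take each peak as independent.

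**Figure D1:**
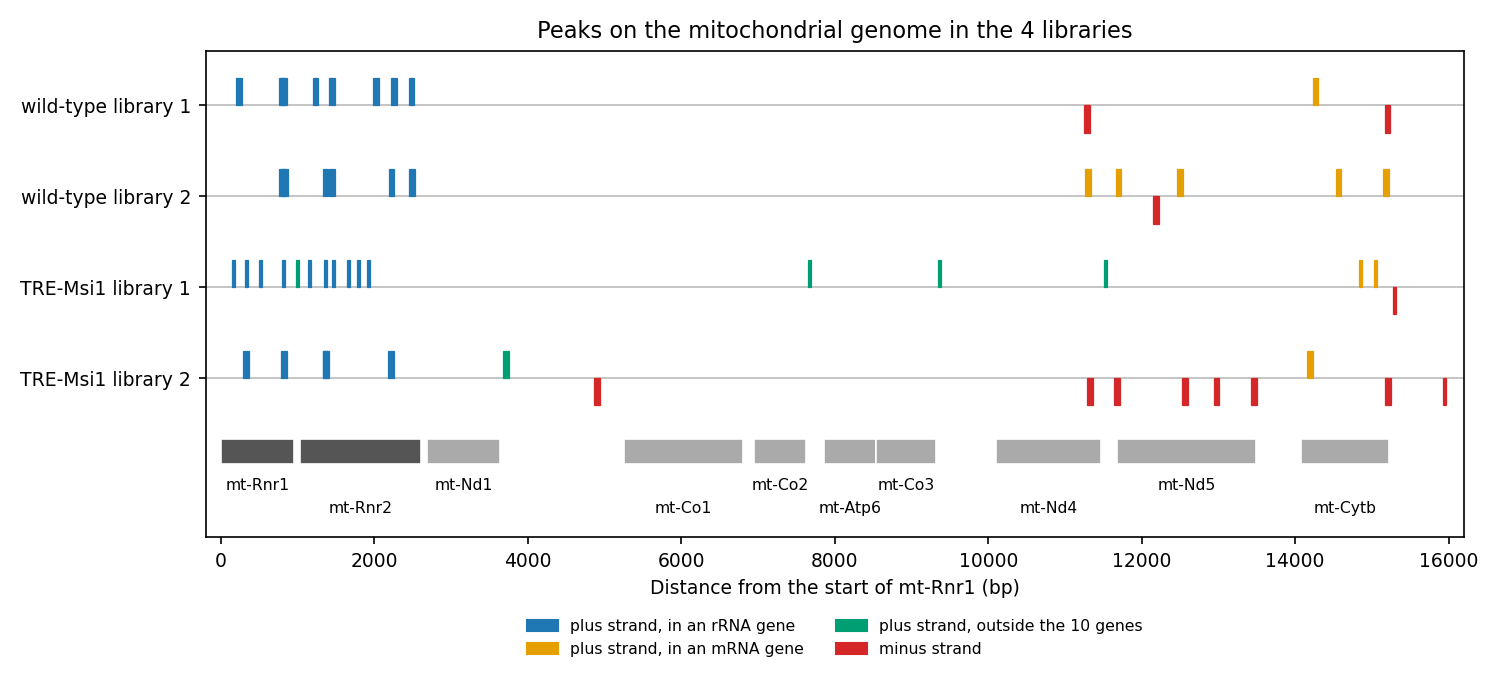
Position of every peak on the mitochondrial genome in the 4 libraries, as distance in bp from the start of mt-Rnr1; boxes above a line are plus-strand peaks, boxes below it minus-strand peaks, and the bottom row shows the 10 genes (dark, rRNA; light, mRNA). Plus-strand peaks sit mostly on the 2 rRNAs and on mt-Cytb, and TRE-Msi1 library 2 has 8 peaks below its line.

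The rRNAs carried most of these peaks, counting the rows present in each list. They held 8 of 9 in wild-type library 1, 6 of 11 in wild-type library 2, 10 of 12 in TRE-Msi1 library 1 and 5 of 6 in TRE-Msi1 library 2, which is 88.9, 54.5, 83.3 and 83.3%. Wild-type library 2 was the lowest, with 5 peaks in mRNAs against 1, 2 and 1 in the other lists. Per kb of gene, the rRNAs had 3.15 and 2.37 peaks in wild-type libraries 1 and 2 and 3.94 and 1.97 in TRE-Msi1 libraries 1 and 2. The 8 mRNAs had 0.111 and 0.556 peaks per kb in the wild-type libraries and 0.222 and 0.111 in the TRE-Msi1 libraries. In each list the rRNAs were the denser class, by 28.4-fold and 4.26-fold in wild-type libraries 1 and 2 and by 17.7-fold in each TRE-Msi1 library. Away from the mitochondrial genome the same lists held 1.79, 2.05, 69.9 and 15.0 peaks per Mb, over both transcribed and untranscribed sequence. Unlike the values per kb of gene, these count peaks of both strands. Their length is approximate, taken from the highest peak end on each chromosome.

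**Figure D2:**
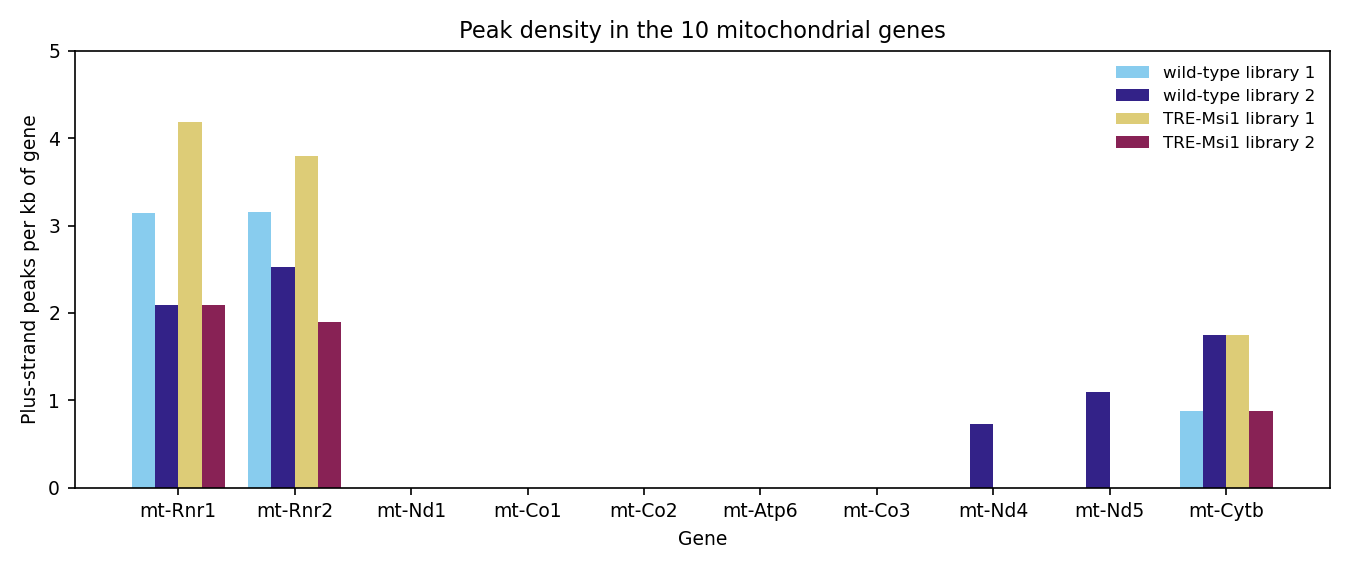
Plus-strand peaks per kb of gene in each of the 10 mitochondrial genes, 1 bar per library. mt-Rnr1, mt-Rnr2 and mt-Cytb have a bar in all 4 libraries, mt-Nd4 and mt-Nd5 in wild-type library 2 alone, and the other 5 genes have none.

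mt-Rnr1, the rRNA of the small subunit of the mitochondrial ribosome, spans bases 70 to 1024 of the mitochondrial genome. It had 3 and 2 peaks in wild-type libraries 1 and 2 and 4 and 2 in TRE-Msi1 libraries 1 and 2, which covered 18.3, 11.9, 16.8 and 15.7% of its 955 bases. One stretch near its 3' end, at 826 to 941, held a peak in all 4 lists and was the one such stretch among the 10 genes. In wild-type library 1 the peaks there were 826 to 899 and 853 to 926, and in wild-type library 2 they were 828 to 902 and 867 to 941. TRE-Msi1 library 1 had its peak at 869 to 908 and TRE-Msi1 library 2 at 854 to 928. The 40 bases from 869 to 908 were covered in all 4 libraries, and the middle of each of these 6 peaks lay 83.0 to 87.4% along the gene. Peaks in this stretch were also the highest-ranked of mt-Rnr1 in each list, at rank 6 in wild-type library 1, 7 in wild-type library 2, 128 in TRE-Msi1 library 1 and 2 in TRE-Msi1 library 2. Rank 1 is the highest authors' score of a list; wild-type library 1 has the score 0 in all rows, and its row order stood in for the score.

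The 5' part of mt-Rnr1 differed more between lists. Both TRE-Msi1 libraries had a peak at 363 to 437, with 385 to 424 in library 1 lying inside 363 to 437 of library 2. Wild-type library 1 had its nearest peak at 271 to 344, 18 bp before the TRE-Msi1 library 2 peak. In wild-type library 2 the nearest was 390 bp away. TRE-Msi1 library 1 alone had peaks at 208 to 247 and 562 to 601. Over the whole gene 190 bases were covered in at least 1 wild-type list and 230 in at least 1 TRE-Msi1 list. The 75 bases common to both sets were 39.5% of the wild-type and 32.6% of the TRE-Msi1 bases.

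mt-Rnr2, the rRNA of the large subunit, spans 1094 to 2675 and had the most peaks of any of the 10 genes in each list. It had 5 and 4 peaks in wild-type libraries 1 and 2 and 6 and 3 in TRE-Msi1 libraries 1 and 2, which covered 23.4, 19.0, 15.2 and 10.1% of its 1582 bases. No base of it was covered in all 4 lists, and 109 bases were covered in 3. Near its 5' end the peaks of different lists lay side by side. At 1394 to 1479 there was a peak in wild-type library 2 (1394 to 1468), in TRE-Msi1 library 1 (1407 to 1446) and a pair in TRE-Msi1 library 2 (1396 to 1470 and 1405 to 1479). The second of that pair, with a score of 513, was the highest-scored peak of the whole TRE-Msi1 library 2 list. Wild-type library 1 had no peak there, and its own peak at 1484 to 1557 began past its end, with 4 bp between it and the nearest TRE-Msi1 library 2 peak. That next stretch, 1482 to 1557, held peaks in both wild-type libraries and in TRE-Msi1 library 1 (1513 to 1552). In wild-type library 2 its peak, 1482 to 1556, was the highest-ranked mitochondrial peak, at rank 5 with a score of 380.

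Further along mt-Rnr2 the TRE-Msi1 lists parted. At 2246 to 2365 there were overlapping peaks in wild-type library 1 (2292 to 2365), wild-type library 2 (2255 to 2329) and TRE-Msi1 library 2 (2246 to 2320), and the nearest TRE-Msi1 library 1 peak was 231 to 277 bp away from these. At 2517 to 2594 both wild-type libraries had a peak, 2517 to 2590 in library 1 and 2520 to 2594 in library 2, with 71 bp in common. The nearest TRE-Msi1 library 2 peak was 196 and 199 bp from them and the nearest of TRE-Msi1 library 1 502 and 505 bp. TRE-Msi1 library 1 had instead 1204 to 1243, 1712 to 1751, 1842 to 1881 and 1975 to 2014, which overlapped no peak of another list. Wild-type library 1 had 1265 to 1338 and 2053 to 2126 to itself. Of 488 bases covered in at least 1 wild-type list and 359 covered in at least 1 TRE-Msi1 list, 179 were common, or 36.7% and 49.9%.

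**Figure D3:**
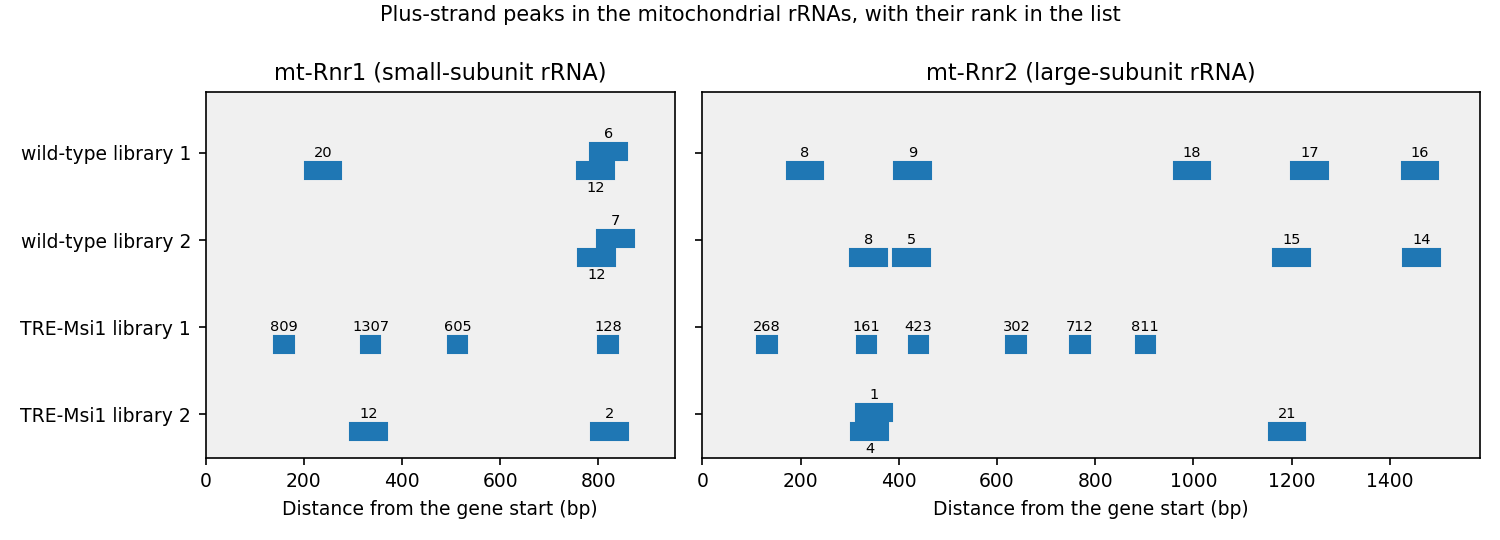
Plus-strand peaks in the 2 mitochondrial rRNAs, as distance in bp from the start of each gene, 1 row per library; bars are peaks, raised where they overlap another of the same list, and the number beside each is its rank in the list. The right end of mt-Rnr1 has a peak in all 4 rows. Beyond 921 bp mt-Rnr2 has peaks in 3 rows, with none in TRE-Msi1 library 1. Ranks of wild-type library 1 are row order.

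Of the 8 mRNAs, 5 had no peak in any list on either strand: mt-Nd1 (2751 to 3707), a subunit of respiratory complex I, mt-Co1 (5328 to 6872), mt-Co2 (7013 to 7696) and mt-Co3 (8607 to 9390), the core subunits of cytochrome c oxidase, and mt-Atp6 (7927 to 8607), a subunit of ATP synthase. Together these genes are 4651 bp long. Between the start of mt-Nd1 and the end of mt-Co3, a span of 6640 bp, the 4 lists had 3 rows in all, each outside the genes.

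mt-Nd4 (10167 to 11544) and mt-Nd5 (11742 to 13565), both subunits of complex I, had plus-strand peaks in wild-type library 2 and in no other list. The mt-Nd4 peak was 11334 to 11408, with a score of 21 and rank 227. In mt-Nd5 there were 11730 to 11804, which begins before the gene and shares 63 bp with it (score 40, rank 107), and 12536 to 12610 (score 11, rank 874). Wild-type library 1 and both TRE-Msi1 libraries had 0 plus-strand peaks in either gene, so the difference lay between the 2 wild-type libraries as much as between groups.

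mt-Cytb (14145 to 15288), the cytochrome b subunit of complex III, was the one mRNA with a plus-strand peak in all 4 lists, but at positions that differed. Wild-type library 1 had 14300 to 14373 and TRE-Msi1 library 2 had 14222 to 14296, 3 bp apart. Wild-type library 2 had 14597 to 14671 and 15218 to 15292. TRE-Msi1 library 1 had 14901 to 14940 and 15098 to 15137. No 2 of these 6 peaks shared a base. Their ranks were 932 in wild-type library 1, 136 and 63 in wild-type library 2, 47544 and 57547 in TRE-Msi1 library 1 and 1870 in TRE-Msi1 library 2. Among the 25% highest-ranked peaks of each list, TRE-Msi1 library 1 no longer had a peak in mt-Cytb, and 2 genes, the rRNAs, were left with a peak in all 4 lists in place of 3.

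Joined where they touched, the plus-strand peaks of all lists made 15 stretches in the rRNAs and 9 in the mRNAs. In the rRNAs 9 stretches belonged to a single list, 2 to a pair of lists, 3 to 3 lists and 1 to all 4. In the mRNAs each of the 9 belonged to a single list. The peaks of a list in the 10 genes were then set against the other lists, counting same-strand overlap of at least 1 bp. In wild-type library 1, 4 of 9 peaks overlapped a peak of at least 1 TRE-Msi1 list (44.4%, 18.9 to 73.3%), against 58.4% of its whole list. In wild-type library 2 it was 5 of 11 (45.5%, 21.3 to 72.0%), against 20.2%. Both TRE-Msi1 lists were met by 2 of 9 peaks in wild-type library 1, with 15.5% over the list, and by 3 of 11 in wild-type library 2, with 4.63%. The overlapped peaks lay in the rRNAs in each of these comparisons. Seen from the other side, 3 of 12 peaks of TRE-Msi1 library 1 met a peak of at least 1 wild-type list (25%, 8.89 to 53.2%, list 1.24%), and 4 of 6 of TRE-Msi1 library 2 did (66.7%, 30.0 to 90.3%, list 5.19%). For overlap with at least 1 list of the other group, the share in the genes was below that of the whole list in wild-type library 1, where the list value lay inside the interval, and above it in the other libraries. For overlap with both TRE-Msi1 lists it was above the list in both wild-type libraries, at 22.2% (6.32 to 54.7%) and 27.3% (9.75 to 56.6%). In wild-type library 1 the list value of 15.5% lay inside that interval. All these intervals take each peak as independent, though peaks of a list can overlap each other. The 2 wild-type library 1 peaks that met both TRE-Msi1 lists, 826 to 899 and 853 to 926, overlap each other. So do 1396 to 1470 and 1405 to 1479 among the 4 of TRE-Msi1 library 2.

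Within the wild-type pair, 5 of the 9 peaks of the first list (55.6%, list 10.6%) and 5 of the 11 of the second (45.5%, list 9.38%) overlapped each other's peaks. Within the TRE-Msi1 pair it was 3 of 12 (25%, list 1.18%) in the first list and 4 of 6 (66.7%, list 5.67%) in the second. These rRNA peaks rank near the top of their lists, and in 3 of the lists, all but TRE-Msi1 library 1, most other peaks of the top 1% met another list too. In wild-type library 1 both the ranks and the top 1% follow row order, not a score. Of the rRNA peaks, 5 of 8, 6 of 6, 4 of 10 and 5 of 5 overlapped at least 1 other list in wild-type libraries 1 and 2 and TRE-Msi1 libraries 1 and 2. In the top 1% of each list without the 10 genes, 40 of 41 peaks (97.6%), 48 of 50 (96.0%), 127 of 1886 (6.73%) and 256 of 403 (63.5%) did so, and in the whole lists 60.8, 22.4, 2.08 and 8.89%. With at least 1 list of the other group, 90.2, 92, 5.57 and 49.4% of these top 1% peaks overlapped. The rRNA peaks did so in 4 of 8, 5 of 6, 3 of 10 and 4 of 5. With both TRE-Msi1 lists it was 53.7 and 48% in wild-type libraries 1 and 2, against 2 of 8 and 3 of 6 rRNA peaks. Within the wild-type pair the top 1% peaks were at 90.2 and 90%, above the genes. Of the rRNA peaks alone 5 of 8 and 5 of 6 overlapped there, and of the mRNA peaks 0 of 1 and 0 of 5. Within the TRE-Msi1 pair the top 1% peaks were at 4.29 and 39.2%, below the genes, with 3 of 10 and 4 of 5 for the rRNA peaks alone.

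In rank, the rRNA peaks stood at the head of 3 lists. They took ranks 6 to 20 in wild-type library 1, 5 to 15 in wild-type library 2 and 1 to 21 in TRE-Msi1 library 2. The ranks and percentiles of wild-type library 1 are row order, which need not follow peak strength. In wild-type library 2, 1576 rows had a higher score than the row before, and in TRE-Msi1 library 2 13689 did. In TRE-Msi1 library 1 it was 0. In TRE-Msi1 library 1 they took ranks 128 to 1307 of 189594, and none of the first 100 rows of that list was mitochondrial. As percentiles of the list all rRNA peaks lay at 99.3 or above in the 4 lists. Scores were 247 to 380 in wild-type library 2, where the list median was 6 and the highest score 595. They were 147 to 513 in TRE-Msi1 library 2, with a list median of 6, and 7.1 to 14.5 in TRE-Msi1 library 1, with a list median of 1.8 and a highest score of 19.9. The unit of the authors' score is not stated, so scores were set against others of the same list alone. Of the summed score of a list, the rRNAs took 3.68% in wild-type library 2, 0.453% in TRE-Msi1 library 2 and 0.0253% in TRE-Msi1 library 1. The mRNA peaks ranked lower than all rRNA peaks of their own list in all 4 lists, with the best at rank 932, 63, 47544 and 1870.

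**Figure D4:**
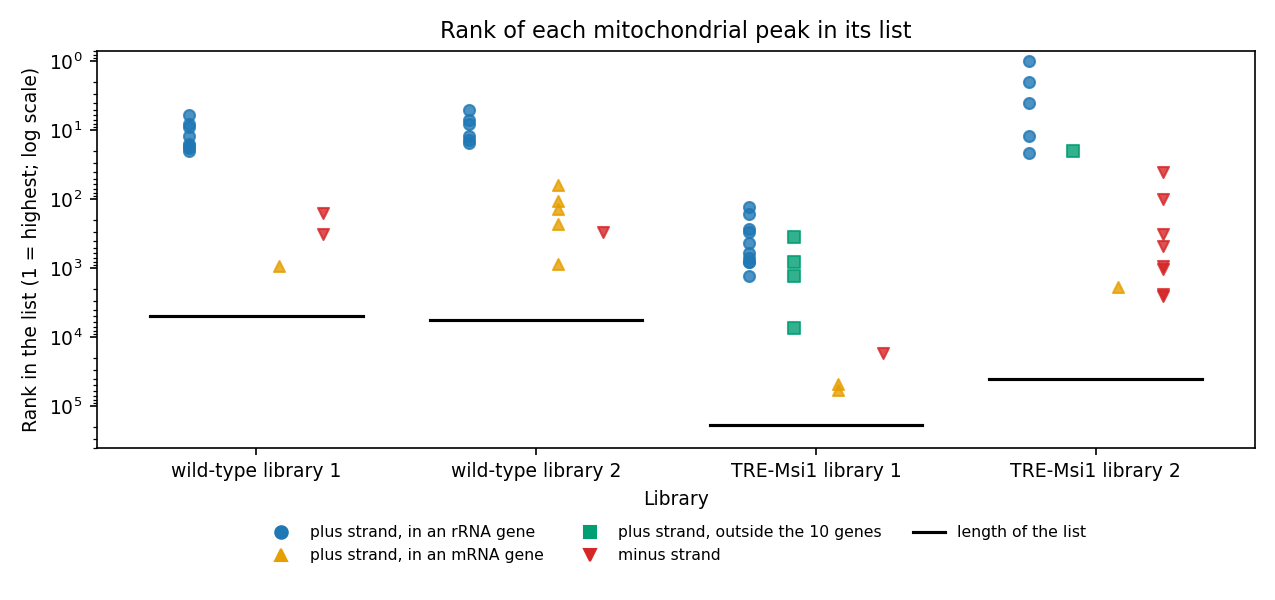
Rank of each mitochondrial peak in its list on a log scale (1 is the highest), 1 column per library, with symbols for strand and gene class and a black line at the length of the list. Ranks of wild-type library 1 are row order. rRNA peaks lie between ranks 1 and 21 in 3 libraries and between 128 and 1307 in TRE-Msi1 library 1, and mRNA peaks lie lower in each column.

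A further 5 plus-strand peaks lay on the mitochondrial genome outside the 10 genes, all in TRE-Msi1 libraries. TRE-Msi1 library 1 had 1044 to 1083, between mt-Rnr1 and mt-Rnr2, at rank 810, and 7726 to 7765, between mt-Co2 and mt-Atp6, at rank 1308. It also had 9419 to 9458, just past mt-Co3, at rank 347, and 11574 to 11613, between mt-Nd4 and mt-Nd5, at rank 7451. TRE-Msi1 library 2 had 3744 to 3818, just past mt-Nd1, at rank 20 with a score of 149. By the order of genes in the RefSeq table of build GRCm38.p6, these gaps hold tRNA genes. TrnV lies between the rRNAs, TrnK after mt-Co2 with ATP8 before mt-Atp6, TrnG after mt-Co3, TrnH, TrnS2 and TrnL2 between mt-Nd4 and mt-Nd5, and TrnI and TrnQ next after mt-Nd1. Of these 5 peaks none overlapped a peak of another list.

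Minus-strand rows numbered 2 and 1 in wild-type libraries 1 and 2 and 1 and 8 in TRE-Msi1 libraries 1 and 2. That was 18.2% (5.14 to 47.7%) and 8.33% (1.49 to 35.4%) of the mitochondrial rows in the wild-type lists, 5.88% (1.05 to 27.0%) in TRE-Msi1 library 1 and 53.3% (30.1 to 75.2%) in TRE-Msi1 library 2. Away from the mitochondrial genome minus-strand peaks made up 48.6, 49.2, 29.2 and 49.1% of the lists, so the TRE-Msi1 library 2 value was near that of its own list and the other 3 were below theirs. On the minus strand, 6 of the 8 rows of TRE-Msi1 library 2 lay opposite mt-Nd4, mt-Nd5 or mt-Cytb, with 4 of them opposite mt-Nd5. The 2 places met in more than 1 list were opposite the 3' end of mt-Cytb, at 15236 to 15309 in wild-type library 1 (rank 160) and 15242 to 15316 in TRE-Msi1 library 2 (rank 40, score 96), and opposite mt-Nd4, at 11318 to 11391 and 11358 to 11432 in the same libraries (rank 314 in both). Opposite mt-Nd5, TRE-Msi1 library 2 had 11709 to 11783, 12593 to 12667, 13009 to 13083 and 13501 to 13575, at ranks 2549, 1018, 474 and 930. The last of these runs past the end of mt-Nd5 and, by the GRCm38.p6 table, overlaps ND6, the one protein gene that the minus strand codes for. Wild-type library 2 had its minus-strand row opposite mt-Nd5 too, at 12219 to 12293 and rank 295, without overlap with those. Outside the 10 genes lay 4935 to 5009 (rank 100) and 15996 to 16040 (rank 2367) in TRE-Msi1 library 2 and 15344 to 15383 (rank 16907) in TRE-Msi1 library 1. By the GRCm38.p6 table, 4935 to 5009 shares positions with ND2 and TrnW, and 15344 to 15383 with TrnT and TrnP. The rRNAs had no minus-strand row in any list.

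Peak labels bear on how an empty gene and the counts above are read. In each list a label ends in a number counted within its chromosome, and on the mitochondrial genome many numbers have no row in the lists used here. The highest number was 19, 23, 49 and 24 in wild-type libraries 1 and 2 and TRE-Msi1 libraries 1 and 2, and 8, 11, 32 and 9 numbers up to it had no row, which is 42.1, 47.8, 65.3 and 37.5%. Over whole lists the numbers without a row made up 54.8, 2.26, 15.0 and 5.15%. On the numbered and X chromosomes the highest value was 59.2, 6.07, 18.0 and 7.73%, so in 3 of the 4 lists the mitochondrial genome had more gaps than any of these 20 chromosomes. The lowest number without a row was 9 in wild-type library 1 and 7 in the others, so the gaps came after the first 6 to 8 mitochondrial peaks of each list. The highest number of an rRNA peak with a row was 8, 6, 17 and 6, so in all lists but TRE-Msi1 library 1 the gaps came after the last such peak. Whether a missing number belonged to an rRNA peak is unknown. Where the missing numbers lay was not analysed here, and a gene without a peak in these lists cannot be told apart from one whose peak has no row. The peak numbers, the rRNA share and the peaks per kb given above carry the same limit, since a peak without a row is counted in none of them.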

How the data were processed

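Msi1 CLIP-seq peak lists of 4 libraries were used, with group and replicate taken from the sample titles. The submitters' processing notes name Bowtie, HOMER and mm9; for versions, settings and filters nothing is stated. The deposited lists give 1 row per peak with its position, strand and the authors' score, whose unit is not stated. Peaks were listed per library, not on pooled samples. Starts were turned to 1-based positions. Each peak was assigned to the gene with the largest overlap (at least 1 bp, plus strand). Gene positions came with the list of genes; all 10 have the same start and end in the RefSeq table of GRCm38.p6, which was otherwise used for gene names and order. Ranks follow the score, with ties in row order, and in wild-type library 1 they follow row order alone. Shares carry 95% Wilson intervals.

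The genes and the comparisons were chosen with earlier results of these data known. All 10 genes are named, as are the mitochondrial rows outside them. The set of top 1% peaks was added after values were seen. Overlap code differed from bedtools 2.31.1 for 0 peaks in 12 pairs of lists and was tested on simulated data. The tissue's marker genes were not checked, because no mm9 annotation was used here. Scripts ran in Python 3.11.15 with pandas 2.3.3, numpy 2.4.6, scipy 1.17.1 and matplotlib 3.10.9.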

Additional observations from a re-analysis of the deposited data

Results flagged for a closer look

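The 8 minus-strand rows of TRE-Msi1 library 2 on the mitochondrial genome stood out because they exceed the wild-type numbers (2 and 1) on a strand that the gene counts leave out. They were 53.3% of the mitochondrial rows of that list, near the 49.1% of minus-strand peaks in the rest of the list. TRE-Msi1 library 1 had 1, so the larger number belonged to one library and not to the group. The plus-strand peaks between the 10 genes, 4 in TRE-Msi1 library 1 and 1 in TRE-Msi1 library 2, stood out because both wild-type lists had 0. The TRE-Msi1 lists are also the longer ones, at 189594 and 40776 peaks against 4863 and 5578. With every list cut to 4863 peaks, TRE-Msi1 library 2 kept its 8 minus-strand rows and its 1 peak between genes. TRE-Msi1 library 1 kept 3 of its 4 peaks between genes and 0 minus-strand rows. Such a cut does not equalise read depth, which is unknown, and a part of list length in these numbers was not tested.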

How the results depend on the processing

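The genes' share of a list depended on list length: the log2 difference between groups was -4.31 with whole lists and -0.36 with lists cut to 4863 peaks, and -4.92 to -3.70 when each library was left out. The share of rRNA among the genes' peaks was 11.6 percentage points higher in TRE-Msi1 than in wild-type libraries, less than the spread between replicates (SD 17.2), and was -5.56 without wild-type library 2, with 28.8 the highest value when each library was left out. It was 1.14 on either strand and 19.9 both with lists cut to 4863 peaks and with the 25% highest-ranked peaks. The mean share of wild-type peaks in the genes that overlapped a TRE-Msi1 peak was 44.9%, and became 39.4% with a reciprocal overlap of 50%, 64.8% on either strand and 24.7% when both TRE-Msi1 lists had to match. It was 34.8 to 45.5% when each library was left out, at 34.8% without TRE-Msi1 library 1 and also without TRE-Msi1 library 2, where a peak had to match the remaining list. The either-strand value also counts minus-strand peaks in the genes, so the set of peaks changed together with the rule for a match; the cause of its move was not tested. Resizing peaks to 75 bp, assignment by midpoint, identical intervals counted once and covered bases moved no value by more than the spread between replicates. The number of genes with a peak in all lists used was 2 or 3 in all 10 alternatives, of which 4 leave out a library and count over 3 lists. With the replicate number as a block, the log2 difference was -4.31 and the rRNA difference 11.6, the same as without, since both replicates of a group weigh equally. The low number of peaks, 6 to 12 per list, limits each share, and read depth is unknown.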
